A study of Mus musculus with 6 samples.

Results

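Nuclei that carried messengers of conventional and mature dendritic cells were picked out of single-nucleus RNA sequencing (snRNA-seq) libraries of mouse tumors. They were chosen on their own counts. A nucleus was taken when at least 2 of 8 genes (Flt3, Zbtb46, Xcr1, Clec9a, Ccr7, Ccl22, Fscn1 and Cd209a) had a count, when Mrc1, Stab1, Siglech and Skap1 all had 0 counts, and when the tumor genes Hmga2, Mecom and Slit2 together took under 0.5% of its unique molecular identifiers (UMIs, the tags that count captured molecules). The rule took 65 of the 18014 nuclei that passed the quality limits of 100 to 7500 detected genes and under 20% mitochondrial counts. All values of the 8 genes in these nuclei are therefore descriptions of the choice. Read so that 2 genes each needed 2 or more counts, the same rule took 14 nuclei.

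The tumors grew from TC1 cells, a mouse lung tumor line, placed under the skin of mice that carried MCT2 loxP/loxP alleles and the inducible mCre-Tg transgene. MCT2 is the monocarboxylate transporter encoded by Slc16a7. At 8 weeks of age, KO mice received tamoxifen for 5 days to delete the gene throughout the host, CO mice received vehicle, and tumors were collected 24 days after injection, with 3 libraries per group. The labels name the tissue as lung, although these were subcutaneous tumors. Both groups bore the same alleles, so deletion and tamoxifen exposure cannot be told apart, and the transporter was deleted in the host and not in the tumor line. Labels number the replicates but do not say that each library came from a separate animal, so p-values here measure the spread between libraries.

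Dendritic cells take up antigen, load it on MHC molecules and present it to T cells. The conventional type 1 subset (cDC1) carries the chemokine receptor Xcr1 and the dead-cell receptor Clec9a and is known for presenting engulfed tumor antigen on MHC class I. Conventional type 2 cells (cDC2) are marked by genes such as Sirpa and Cd209a. Dendritic cells that mature switch on Ccr7, which guides them to lymph nodes, along with the actin-bundling protein Fscn1 and the chemokine Ccl22. Flt3 is the receptor for the growth factor on which conventional dendritic cells depend, and Zbtb46 is a transcription factor of that lineage.

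In mouse build GRCm38, with GENCODE vM21 annotation, the genes of the rule are protein-coding and lie on several chromosomes. Flt3 (ENSMUSG00000042817) spans chr5:147330741-147400489 on the minus strand with 25 merged exons. Zbtb46 (ENSMUSG00000027583) spans chr2:181387762-181459426 on the minus strand with 6. The cDC1 pair is Xcr1 (ENSMUSG00000060509, chr9:123852315-123862029, minus, 2 exons) and Clec9a (ENSMUSG00000046080, chr6:129408862-129424763, plus, 7 exons). The maturation genes are Ccr7 (ENSMUSG00000037944, chr11:99144196-99155077, minus, 3 exons), Ccl22 (ENSMUSG00000031779, chr8:94745590-94751699, plus, 4 exons) and Fscn1 (ENSMUSG00000029581, chr5:142960343-142973185, plus, 8 exons), and Cd209a (ENSMUSG00000031494) spans chr8:3743397-3748984 on the minus strand with 6 exons.

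Zbtb46 and Fscn1 also had counts in many tumor nuclei, whereas Xcr1 and Clec9a did not, so the windows before the RefSeq start sites of these 4 genes are shown. Each is the 250 bases before the RefSeq start site (GRCm38.p6), 5′ to 3′ on the gene's strand, with every CG dinucleotide in capitals. The windows are chr9:123862030-123862279 for Xcr1, chr6:129408612-129408861 for Clec9a, chr2:181424389-181424638 for Zbtb46 and chr5:142960105-142960354 for Fscn1.
Xcr1: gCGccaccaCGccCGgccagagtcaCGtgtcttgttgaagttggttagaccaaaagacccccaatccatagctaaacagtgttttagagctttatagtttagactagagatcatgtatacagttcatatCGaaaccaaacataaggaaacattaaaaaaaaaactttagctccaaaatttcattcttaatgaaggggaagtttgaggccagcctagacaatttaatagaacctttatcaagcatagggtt
Clec9a: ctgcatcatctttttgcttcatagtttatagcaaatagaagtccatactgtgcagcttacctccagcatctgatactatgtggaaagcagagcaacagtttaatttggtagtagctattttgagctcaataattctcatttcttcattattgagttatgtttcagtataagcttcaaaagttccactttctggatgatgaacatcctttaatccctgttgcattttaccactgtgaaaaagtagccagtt
Zbtb46: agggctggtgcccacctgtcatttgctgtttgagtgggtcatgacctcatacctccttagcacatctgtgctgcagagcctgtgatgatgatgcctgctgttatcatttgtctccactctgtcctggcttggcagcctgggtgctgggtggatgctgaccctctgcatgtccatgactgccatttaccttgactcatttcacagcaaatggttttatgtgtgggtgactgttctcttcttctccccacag
Fscn1: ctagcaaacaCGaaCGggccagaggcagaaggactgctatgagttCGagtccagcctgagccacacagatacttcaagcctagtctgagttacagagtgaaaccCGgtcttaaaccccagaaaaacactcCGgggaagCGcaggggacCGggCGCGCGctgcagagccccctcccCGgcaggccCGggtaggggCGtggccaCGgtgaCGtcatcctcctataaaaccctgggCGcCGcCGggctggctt
The Fscn1 window held 18 CG dinucleotides at 62.4% G plus C, the Xcr1 window 5 at 38.8%, and the Clec9a and Zbtb46 windows 0 at 35.6% and 51.6%. Over all 32851 RefSeq windows of this length the median was 6, 92.1% held at least 1, and 21.7% held as many as Fscn1. RefSeq gave windows for 7 of the 8 genes. The Zbtb46 window lies within the span that GENCODE gives for the gene, at a RefSeq start downstream of the GENCODE start, so it need not be the promoter used here. The letters are a description only.

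The libraries held 13252572 to 22057084 UMIs, and the median per kept nucleus ran from 1099 to 4897.5. As a check of the deletion, Slc16a7 (chr10:125219270-125389465, minus strand, 13 merged exons) had 132, 168 and 175 counts over all kept nuclei of the CO libraries and 292, 113 and 363 in the libraries labelled KO. Per 10000 UMIs these were 0.0857, 0.118 and 0.220 against 0.164, 0.0725 and 0.315. In macrophages alone, which are host cells, they were 1.09, 0.942 and 1.71 in CO against 1.37, 1.33 and 1.49 in KO. The groups overlapped, and Slc16a7 messenger was not lower in the libraries labelled KO, so directions below refer to libraries as labelled. A 3′ count over the whole gene need not report a deleted exon. In the 65 nuclei Slc16a7 had 1 count, in KO 3, against 662 in macrophages, a ratio of 0.0344 per UMI with an exact 95% counting interval of 0.000869 to 0.192.

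The 65 nuclei came from every library. CO 1, CO 2 and CO 3 gave 11, 18 and 9, and KO 1, KO 2 and KO 3 gave 13, 6 and 8. Their UMIs ran from 526 to 17091 with a median of 1584, near the median of 1246 for the 3362 macrophages (nuclei with a count of Adgre1 or Mrc1 under the same tumor-gene limit) and below the 4857.5 for the 10160 tumor nuclei at or over that limit. No member barcode occurred in another library.

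**Figure D1:**
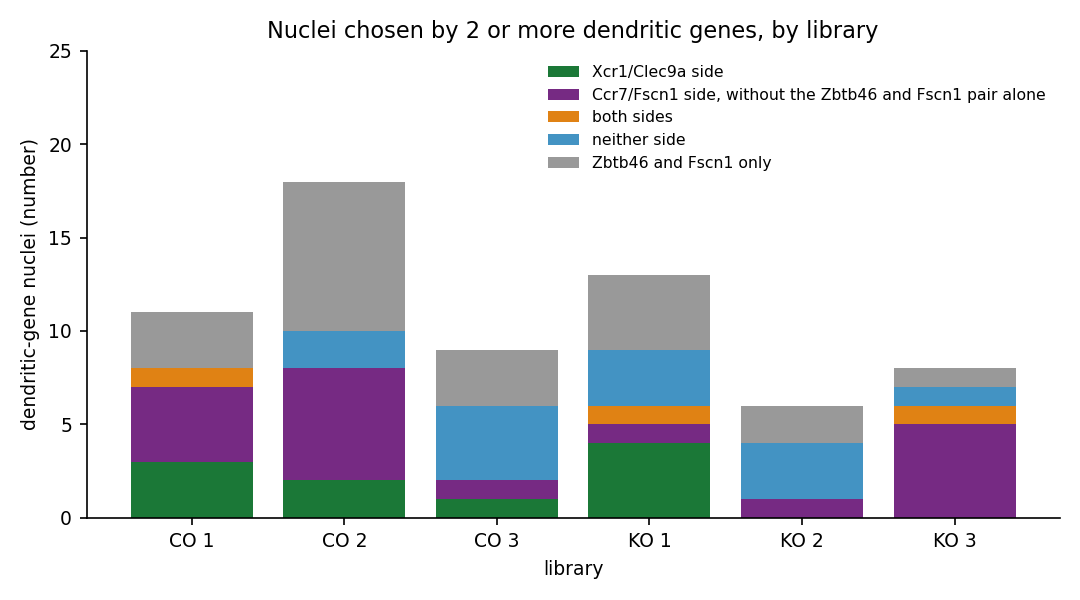
Number of selected nuclei (vertical axis) in each of the 6 libraries, stacked by which genes chose them. Gray marks the 21 nuclei chosen by Zbtb46 and Fscn1 alone, of which CO 2 held 8, and green the Xcr1/Clec9a side, which had 0 nuclei in KO 2 and KO 3.

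Zbtb46, Fscn1 and Flt3 chose most of the nuclei. Zbtb46 had 84 counts in 52 of the 65 (80%, exact 95% interval 68.2 to 88.9), Fscn1 54 counts in 39 (60%, 47.1 to 72.0) and Flt3 76 counts in 35 (53.8%, 41.0 to 66.3). The other genes of the rule were sparse. Clec9a had a count in 9 nuclei, Ccr7 in 9, Xcr1 in 5, and Ccl22 and Cd209a in 2 each. These intervals, and those below, cover counting error only.

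Outside the 65, the genes of the rule separated into those that were near 0 everywhere and those that were not. Flt3 had a count in 0.535% of macrophages and 0.650% of tumor nuclei, and Xcr1, Clec9a, Ccr7, Ccl22 and Cd209a in at most 0.387% of either. Zbtb46, by contrast, had a count in 25.2% of tumor nuclei and 1.78% of macrophages, and Fscn1 in 19.2% and 2.23%. Tumor nuclei were the deeper class. Per 10000 UMIs Zbtb46 was at 0.547 in tumor nuclei and 0.136 in macrophages, and Fscn1 at 0.355 and 0.154. Free RNA in droplets gives counts in cells that do not express a gene. Of tumor nuclei, 792 (7.80%) had at least 2 of the 8 genes, and in 730 of these (92.2%) the genes were Zbtb46 and Fscn1 alone. Other pairs occurred in 62 tumor nuclei (0.610%), counted whether or not Mrc1, Stab1, Siglech and Skap1 were at 0. Below the tumor-gene limit 44 of 7854 nuclei (0.560%) had other pairs with those genes at 0, so the shares are not counted alike.

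That pair split the selected nuclei. The 21 nuclei chosen by Zbtb46 and Fscn1 alone had a median of 5955 UMIs, 8.99% mitochondrial counts and 0.369% tumor-gene UMIs. For the 44 nuclei chosen by any other pair the medians were 1417 UMIs, 0.950% and 0.0713%. Of the 21, 16 exceeded 3000 UMIs and 17 exceeded 5% mitochondrial counts, against 5 of 44 for each measure among the others. The 21 supplied 58.3% of all UMIs of the 65 nuclei, so sums over the 65 lean on them. None of the 65 was among the 521 nuclei removed as likely doublets in an alternative.

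**Figure D2:**
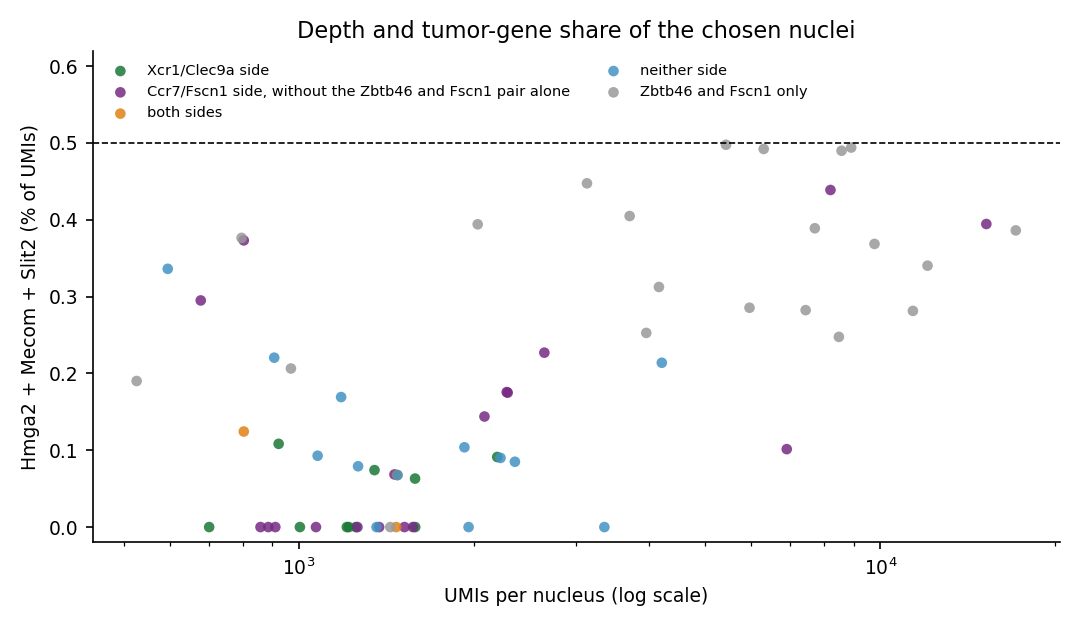
Each point is a selected nucleus, with its UMIs on a log axis and the percent of UMIs in Hmga2, Mecom and Slit2 on the vertical axis. The dashed line is the 0.5% limit. Gray points (Zbtb46 and Fscn1 alone) fill the deep right side, and colored points mostly lie between 595 and 4208 UMIs.

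The label was checked on lists of genes that the rule did not use, given as summed counts per 10000 UMIs of pooled nuclei. The 44 nuclei stood at 24.1 for the cDC1 list and 54.9 for the mature list, against 17.7 and 22.1 in macrophages and 2.31 and 11.0 in tumor nuclei. Their cDC2 level was 9.50, below the 11.7 of macrophages. Their MHC class II level was 31.9 and that of macrophages 25.7. Libraries differed. The cDC1 level was below that of macrophages in KO 2 (8.91 against 23.8) and KO 3 (13.9 against 25.1) and above it in the other 4, and the mature level was below it in KO 2 alone (6.37 against 19.7). In KO 2 a single nucleus held 15210 of the 23566 UMIs summed there, with 1 count of cDC1 genes. MHC class II was lower than in macrophages in CO 1 (27.0 against 43.2), CO 2 (23.2 against 26.6) and KO 3 (6.94 against 15.1). The 21 Zbtb46/Fscn1 nuclei stood at 3.24 for cDC1 genes, 3.08 for MHC class II, 13.6 for fibroblast and 12.9 for tumor genes. Tumor nuclei had 2.31, 2.77, 14.5 and 19.7 for the same lists. On these lists the 21 nuclei lay nearer to tumor nuclei than to the 44 others, against their label, apart from a mature-list level of 44.3, of which the chemokine Ccl5 made up 33.5. They are called Zbtb46/Fscn1 nuclei here. An exception was a nucleus of CO 3 with 1436 UMIs, which had 7 counts of cDC1 genes, 6 of cDC2 genes and 8 of MHC class II genes.

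Markers of most other cells were low in the 44, but not those of plasmacytoid dendritic cells, at 10.6 beside 13.4 in macrophages. The cycling list stood at 23.9 beside 11.9, with 101 of its counts in 1 nucleus of KO 2. Macrophage genes stood at 12.3 against 60.7 in macrophages, T and NK genes at 0.540, B and plasma cell genes at 0.756, neutrophil genes at 0.108, and the mast and basophil list at 0. Among the 44, the tumor list stood at 4.96 and the fibroblast list at 3.67 beside 4.90 and 5.02 in macrophages. At the edge of the rule, 388 nuclei under the tumor-gene limit had 1 gene of the 8 and none of the excluded genes, 47 had 2, 13 had 3 and 5 had 4. The highest tumor-gene share inside was 0.498% and the lowest outside 0.511%. Between 0.4% and 0.5%, 6 of 7 nuclei were Zbtb46/Fscn1 nuclei, and just outside, between 0.5% and 0.6%, 16 of 22 had that pair alone. A further 21 nuclei met all but the excluded genes, 12 through Stab1, 11 through Mrc1, 4 through Siglech and 1 through Skap1, some through more than 1.

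On the Xcr1/Clec9a side were 10 nuclei, with a count of either gene and none of Ccr7 or Fscn1. Their genes were those of cDC1 cells and of antigen presentation. They came from CO 1 (3), CO 2 (2), CO 3 (1) and KO 1 (4), had a median of 1235.5 UMIs, and all 10 carried Flt3. The cDC1 list stood at 102 per 10000 in them and had 4 to 25 counts in each nucleus (median 11.5). Wdfy4, which cDC1 cells need to cross-present antigen, had 49 counts in all 10. Cadm1, an adhesion molecule of cDC1 cells, had 20 counts in 8 nuclei, and Itgae, the integrin CD103, 17 in 8. Tlr11, a receptor for microbial profilin, had 8 counts in 5 nuclei and 0 in the other 55. Batf3, a factor cDC1 cells depend on, was sparse, at 3 counts in 3 nuclei. Irf8, also a cDC1 factor, was listed at 0 in all 65 nuclei, and at 0 in all macrophages and tumor nuclei too.

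MHC class II genes were the other strong feature of these 10 nuclei, at 88.3 per 10000 with 1 to 30 counts in each. The invariant chain Cd74 had 40 counts in 7 nuclei, H2-Eb1 20 in 7 and Ciita, the factor that turns on MHC class II genes, 19 in 8. Among growth factor receptors, Kit had 4 counts in 4 nuclei and Csf1r 0. Btla, an inhibitory receptor of the immunoglobulin family, had 17 counts in 6 nuclei, and Zfp366, a zinc finger gene on the cDC1 list, 16 in 7.

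The Ccr7/Fscn1 side held 39 nuclei, 21 of them the Zbtb46/Fscn1 nuclei. The other 18 came from CO 1 (4), CO 2 (6), CO 3 (1), KO 1 (1), KO 2 (1) and KO 3 (5), with a median of 1489.5 UMIs. Mature dendritic and NF-kB genes led in them. The mature list stood at 78.8 per 10000 of pooled UMIs, with 3 to 52 counts in each nucleus (median 21.5). The cDC1 list stood at 4.04, with 0 to 5 counts. Per nucleus the medians were 125 and 6.47 per 10000, and 3 deep nuclei, given below, weigh on the pooled levels. Traf1, an adaptor of TNF receptor signaling, had 41 counts in 13 of the 18, and Relb, the NF-kB subunit tied to dendritic maturation, 28 in 12. Socs2, a cytokine-signaling inhibitor, had 31 counts in 12 nuclei, Samsn1 44 in 10, Tbc1d4 50 in 12 and Cd200, a ligand that restrains myeloid cells, 14 in 8. The costimulatory ligands Cd80 and Tnfsf4 had 29 counts in 11 nuclei and 14 in 8, and Il12b, a subunit of interleukin 12, had 16 counts in 5. Ccl17 was listed at 0 throughout the 65.

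Some genes had counts on only 1 of the sides, and since the sides were cut from these same nuclei no test was made. Wdfy4, Itgae, March1 and P2ry14 had 49, 17, 18 and 15 counts on the Xcr1/Clec9a side and 0 in the 18 nuclei, which held 52000 UMIs against 13019. In the other direction, the phosphodiesterase Pde4d had 125 counts in 13 of the 18, Mreg 41 in 14, Adgrg6 43 in 11, Strip2 29 in 12 and the endocytic receptor Ly75 (DEC-205) 27 in 13, each with 0 on the Xcr1/Clec9a side. Stat4, the signal transducer of interleukin 12, had 100 counts in 11 nuclei against 3 in 2, and Tmtc2 83 in 12 against 1. MHC class II genes stood at 6.73 per 10000 on the Ccr7/Fscn1 side, with 0 to 15 counts per nucleus, and NF-kB genes at 47.1 against 14.6. The NF-kB list had a count in 18 of 18 nuclei and in 7 of 10. Not every gene parted the sides. Cytip, an inhibitor of leukocyte adhesion, had 53 counts in 13 of 18 and 17 in 8 of 10, and Flt3 27 in 12 and 21 in 10.

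**Figure D3:**
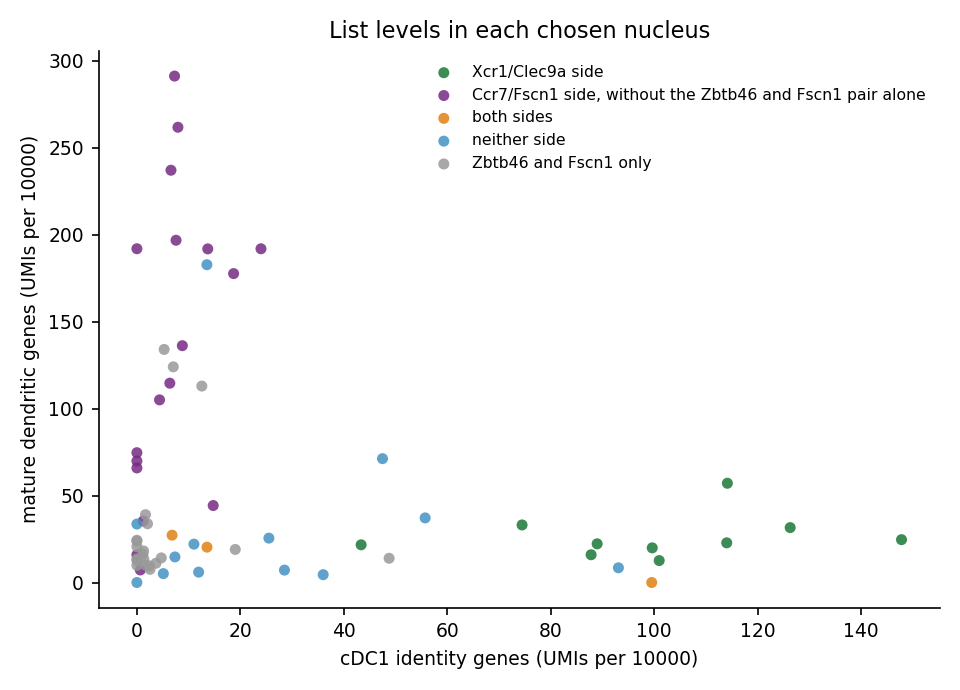
Each point is a selected nucleus, with its summed cDC1 identity genes on the horizontal axis and mature dendritic genes on the vertical axis, both in UMIs per 10000. The 10 green points (Xcr1/Clec9a side) lie to the right at 43.3 to 148, and the 18 purple points (Ccr7/Fscn1 side without the Zbtb46/Fscn1 nuclei) lie at 24.0 or less and reach 291 upwards.

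A few nuclei departed from their side. On the Ccr7/Fscn1 side 3 of the 18 exceeded 3000 UMIs. They held 6901, 8205 and 15210 of the 52000 UMIs of the 18, so pooled levels of that side lean on them. Their mature-list counts were 11, 29 and 11, and their MHC class II counts 1, 1 and 2. A nucleus of KO 2 with Zbtb46 and Ccr7 counts had 15210 UMIs and held 48 of the 83 counts of the oncofetal gene Hmga2 in the 44 nuclei, 57 of 67 of the activin subunit Inhba and 46 of 51 of the prostaglandin synthase Ptgs2. A nucleus of CO 1 with 6901 UMIs held 177 of 181 counts of P2rx7 and 120 of 182 of Spag5. High sums of these 5 genes on the Ccr7/Fscn1 side are values of single nuclei.

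The remaining members were smaller in number. Counts on both sides occurred in 3 nuclei. A further 13 had counts on neither side and were chosen by Flt3 and Zbtb46 (12 each) or Cd209a (2). Those 13 stood between the sides at 24.3 per 10000 for cDC1 genes and 56.5 for MHC class II, and at 25.1 for mature genes. For cDC2 genes they were at 17.2, above both sides (7.68 and 6.73) and macrophages (11.7). Wdfy4 had 24 counts in 9 of them and Ciita 31 in 9. The cDC2-list gene Runx3, a lineage transcription factor, had 17 counts in 8, and Cd300a 11 in 5. Irf4, a factor of cDC2 cells, was listed at 0 in all 65, and Clec10a likewise.

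**Figure D4:**
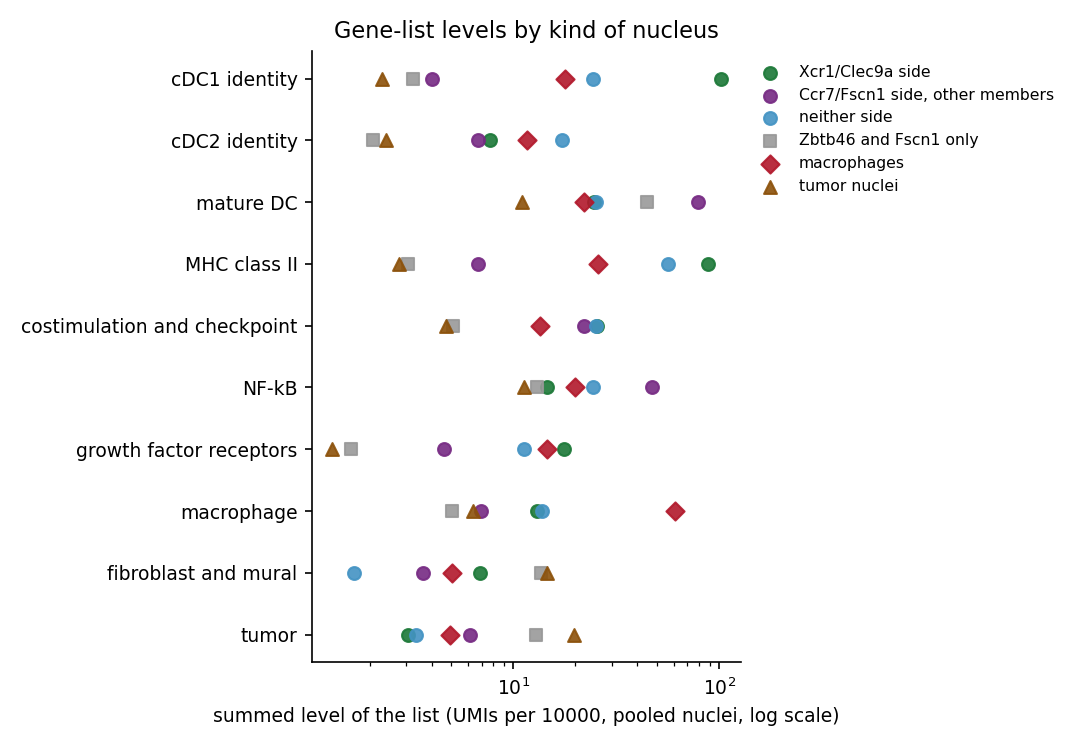
Summed level of 10 gene lists (UMIs per 10000 of pooled nuclei, log axis) in the kinds of selected nuclei, in macrophages and in tumor nuclei. The Xcr1/Clec9a side is highest for cDC1 (102) and MHC class II (88.3), the Ccr7/Fscn1 side for mature (78.8) and NF-kB genes (47.1), and gray squares (Zbtb46/Fscn1 nuclei) lie near the tumor triangles on most lists.

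Members were next compared with macrophages of the same library, the most numerous host cells that also present antigen. Sums per library and class were fitted with edgeR's quasi-likelihood test with library as a block, leaving out the genes that chose either class. A gene was called at an absolute log2 fold change of at least 0.58 and a Benjamini-Hochberg adjusted p of at most 0.05. Of 4670 genes tested, 350 were higher in members (7.49%) and 643 lower (13.8%), with a median log2 fold change of -0.00. Without the 21 Zbtb46/Fscn1 nuclei, an alternative chosen after seeing the data, 76 of 4149 were higher and 341 lower. Of the 350 higher genes, 58 (16.6%) were called higher again, which is 76.3% of the 76, and 49 had the opposite sign. Of the 643 lower genes, 305 (47.4%) were called again, 89.4% of the 341. Most of the 350 higher calls were therefore not made without the Zbtb46/Fscn1 nuclei, 81 of them because the gene was no longer tested.

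Among the 10 genes with the largest fold that were higher in all 6 libraries, 3 carried the immune part. Btla was at 0.642, 0.963 and 3.34 per 10000 in the members of CO 1, CO 2 and CO 3 and at 2.14, 0.569 and 1.84 in KO 1, KO 2 and KO 3. In macrophages it ran from 0.0122 to 0.0952, so the classes did not overlap. On the log2 scale it was 4.95 higher in members by edgeR (SE 0.46) and 5.88 higher without the Zbtb46/Fscn1 nuclei. Btla passed the count filter only through members, where it was high, so its direction was fixed and no p-value is given. Zfp366 was at 1.07, 0.550 and 9.36 in CO members and 2.14, 1.99 and 2.76 in KO members, against 0.274 to 0.652 in macrophages. Only CO 2 fell within the macrophage range for Zfp366 (log2 fold change 2.25, SE 0.41, by edgeR, and 2.97 in the smaller sum). With macrophages as low as 0.274, Zfp366 also passed the count filter through members, so no p-value is given. Cytip was at 3.00, 2.61 and 6.01 in CO members and 4.52, 0.853 and 17.5 in KO members, with macrophages at 0.727 to 1.20. KO 2 was within the macrophage range for Cytip, and its log2 difference was 2.20 (SE 0.35, with an adjusted p of 2.57e-07 by edgeR) and 3.03 without the Zbtb46/Fscn1 nuclei.

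The other 7 of those 10 genes were less tied to dendritic cells. Chst11, a chondroitin sulfotransferase, was 3.14 higher on the log2 scale, with 13.8 per 10000 in KO 3 members and 0.569 to 1.34 in the other libraries, and its log2 difference was 2.20 without KO 3. Cbfa2t3, a transcriptional corepressor of blood cells, was 2.85 higher. Osmr (2.48), Spaca6 (2.45), Eda2r (2.32), Igf2bp2 (2.30) and Tbx3 (2.27) were called as well. Those 5 stood at 1.44 to 3.99 per 10000 in tumor nuclei and at 1.77 to 3.47 in the Zbtb46/Fscn1 nuclei. Without these nuclei Chst11, Cbfa2t3, Osmr and Spaca6 were not tested, and Eda2r, Igf2bp2 and Tbx3 were not called (0.93, 1.16 and 1.21). Since Chst11, Cbfa2t3, Osmr and Spaca6 passed the count filter only with these nuclei included, their direction may have been fixed, as for Btla.

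The genes lowest in members had 0 counts in all 65 nuclei. Against a floor of 3 counts over all members (0.135 per 10000), Ms4a6b was at least 24.6-fold lower than in macrophages. The potassium channel gene Kcnk13 was at least 14.5-fold lower, Csf3r, the granulocyte growth factor receptor, at least 13.1-fold and Gabbr2 at least 9.08-fold. Tmem273, Abcc3, Agmo, Tnfsf13b, Msra and Lilra5 were at least 7.90-, 7.77-, 6.32-, 6.17-, 6.05- and 5.85-fold lower. In all, 11 tested genes were at 0 in every member. Such genes passed the count filter through macrophages, so their direction was fixed and no p-value is given.

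Maturation genes were the list with the most higher calls. Of 24 genes 12 were tested, 7 were higher and 1 lower, with a median log2 fold change of 1.37. Over all tested genes 7.49% were higher and 13.8% lower. Traf1 stood at 2.78, 2.34 and 2.67 per 10000 in CO members and 1.90, 0 and 9.19 in KO members, against 0.354 to 0.780 in macrophages. Only the 0 of KO 2 was not above the macrophage range (log2 difference 2.20, SE 0.41, with an adjusted p of 1.18e-05 by edgeR, and 3.01 without the Zbtb46/Fscn1 nuclei). Tmem123 (1.76), Tbc1d4 (1.74) and Relb (1.52) were higher too and reached 2.46, 2.46 and 1.76 in the smaller sum. Samsn1 and Anxa3 (1.45) were also called. In the smaller sum 5 of 12 tested genes of the list were higher, beside 76 of 4149 over all genes. Samsn1 was at 2.17 there, while Anxa3, at 1.34, and Ccl5 were not called. Arhgap22, a regulator of Rac, was lower at -1.67. Ccl5 behaved otherwise. It was at 30.8, 36.2 and 0 in CO members and 14.3, 0.284 and 4.59 in KO members, was called at 1.30 (SE 0.40, edgeR adjusted p = 0.0113), had 435 of its counts in the Zbtb46/Fscn1 nuclei, and stood at -0.32 without them.

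Identity genes of the conventional subsets were mixed, beside 7.49% higher and 13.8% lower over all tested genes. On the cDC1 list 5 of 15 genes were tested, with Zfp366 higher, Cadm1 lower at -2.96 and a median of 0.10. Zfp366 had passed the count filter through members. Cadm1 was at 11.8 per 10000 in macrophages and 15.4 on the Xcr1/Clec9a side but at 0.192 in the 18 nuclei of the Ccr7/Fscn1 side. Wdfy4 was at 2.36, 2.34 and 12.03 in CO members and 5.71, 2.28 and 2.76 in KO members, with a log2 fold change of 0.61 that was not called (adjusted p = 0.203 by edgeR), but it was called higher, at 1.38, without the Zbtb46/Fscn1 nuclei. Of the cDC2 list 4 of 14 were tested, and Sirpa, the receptor for Cd47, and Cd300a were lower (-2.25 and -1.51). Cd300a lost its call without those nuclei.

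Calls among antigen presentation genes are set beside 7.49% higher and 13.8% lower over all tested genes. On lists this short no difference from those shares is claimed. For MHC class II, 6 of 10 genes were tested, 0 were higher and H2-DMb1, which edits peptide loading, was lower (-1.52), with a median of -0.71. Without the Zbtb46/Fscn1 nuclei 0 were called and the median was -0.01. Ciita stood at 0.20 and Cd74 at -0.66, neither called. For MHC class I, 12 of 13 were tested, and the peptide transporter subunit Tap2 (1.01) and the loading chaperone Tapbp (0.94) were higher, with a median of 0.60. Without the Zbtb46/Fscn1 nuclei neither was called (0.58 and 0.07), and the median was 0.02. H2-K1, the heavy chain of MHC class I, was higher in 6 of 6 libraries at 0.70 but missed the threshold (edgeR adjusted p = 0.183). Among costimulation and checkpoint genes (7 of 15 tested), Cd80 was higher at 1.79, although its level was 0 in CO 3 members, and Vsir (VISTA) and Lgals9 (galectin 9) were lower at -2.60 and -1.88. Only the call of Cd80 was also made without the Zbtb46/Fscn1 nuclei. Cd86, Cd40 and Cd274 (PD-L1) stood at 0.04, 0.34 and 0.10 and were not called.

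Signaling and receptor lists leaned lower, other than NF-kB, beside 7.49% higher and 13.8% lower over all tested genes. Of 9 NF-kB genes tested, Traf1, Relb and Nfkbia (0.99) were higher and Nfkbiz lower (-2.30). Rel, at 0.70, was not called. Without the Zbtb46/Fscn1 nuclei Rel was called (1.30) and Nfkbia was not (0.85). Of 8 growth factor receptors tested, 6 were lower, with Csf1r, the macrophage growth factor receptor, at -3.90, Csf2ra at -1.77 and a list median of -1.87. Among pattern receptor and interferon genes, Tlr1, Tlr4, Tlr7 and Stat2 (-1.21) were lower and 0 were higher. Among 5 cytokines and chemokines, Il1b (-3.01), Tgfb1 (-1.73) and Cxcl16 (-1.65) were lower. Among motility genes, Myo1g, a membrane myosin of leukocytes, was higher (1.09), and among the lower were the Rac activators Dock2 (-1.94) and Dock8 (-1.67). All 12 macrophage genes tested were lower, at a median of -2.63. Without the Zbtb46/Fscn1 nuclei 3 of the 6 growth factor receptors (Csf1r, Csf3r and Ifnar1), Tlr1, Il1b and Tgfb1, the motility gene Dock2 and 10 of the 12 macrophage genes were still called lower. Over all genes 341 of 4149 were lower in that sum. The direction of the macrophage list was partly set by the choice, since macrophages needed Adgre1 or Mrc1 and members had no Mrc1 or Stab1.

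A few genes of other cells were also higher in the members. Pdgfra, a receptor of fibroblasts, was higher at 1.83 and stood at 6.70 per 10000 in the Zbtb46/Fscn1 nuclei, 1.51 in the 44 others and 7.51 in tumor nuclei. Flt1 on the endothelial list was higher at 1.70, with 29 of its 34 counts in the Zbtb46/Fscn1 nuclei. The part of tumor RNA in these calls was not tested. On the cycling list Cenpf (1.41) and Kif11 (1.40) were higher, and 28 of the 53 counts of the mitotic motor Kif11 were in KO 2. On the lists of monocyte and plasmacytoid genes, Slfn4 and Lair1 were lower, each with 3 counts or fewer over the members. No gene of the T and NK, B, neutrophil or mast cell lists was tested. In the monocarboxylate and lactate list (6 of 10 tested), Slc16a7 and Slc16a6 (-1.70) were lower, Slc16a6 only with the Zbtb46/Fscn1 nuclei included, and Ldha, lactate dehydrogenase A, was at 0.34 and not called.

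Libraries labelled CO and KO were compared last, for the number of these nuclei and for their genes. Of nuclei under the tumor-gene limit, members made up 0.887%, 1.22% and 1.02% in CO 1, CO 2 and CO 3, with exact 95% intervals of 0.444 to 1.58, 0.727 to 1.93 and 0.469 to 1.93. In the libraries labelled KO 1, KO 2 and KO 3 they made up 0.606% (0.323 to 1.03), 1.47% (0.542 to 3.17) and 0.467% (0.202 to 0.919). KO 1 and KO 3 lay below all CO libraries and KO 2 above them, on 6 nuclei of 408. The means were 1.04% ± 0.169 and 0.848% ± 0.544 (SD, n = 3 each), a KO minus CO difference of -0.197 percentage points (two-sided exact permutation p = 0.6, where 3 against 3 libraries cannot go below 0.1). With at least 500 genes and under 5% mitochondrial counts required, the shares were 0.751%, 0.890% and 0.962% in CO and 0.446%, 0.635% and 0.533% in KO, which did not overlap. That difference was -0.330 (exact permutation p = 0.1, the smallest possible, n = 3 each). Leaving out KO 2 from the unfiltered shares took the difference to -0.508, and leaving out KO 3 to -0.00642. Of all kept nuclei the shares were 0.488% ± 0.121 and 0.270% ± 0.0348 (SD, n = 3 each), without overlap between groups (exact permutation p = 0.1, the smallest possible), but tumor nuclei enter that denominator. Without the Zbtb46/Fscn1 nuclei the shares were 0.669% ± 0.0209 and 0.603% ± 0.327 (exact permutation p = 1, n = 3 each).

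**Figure D5:**
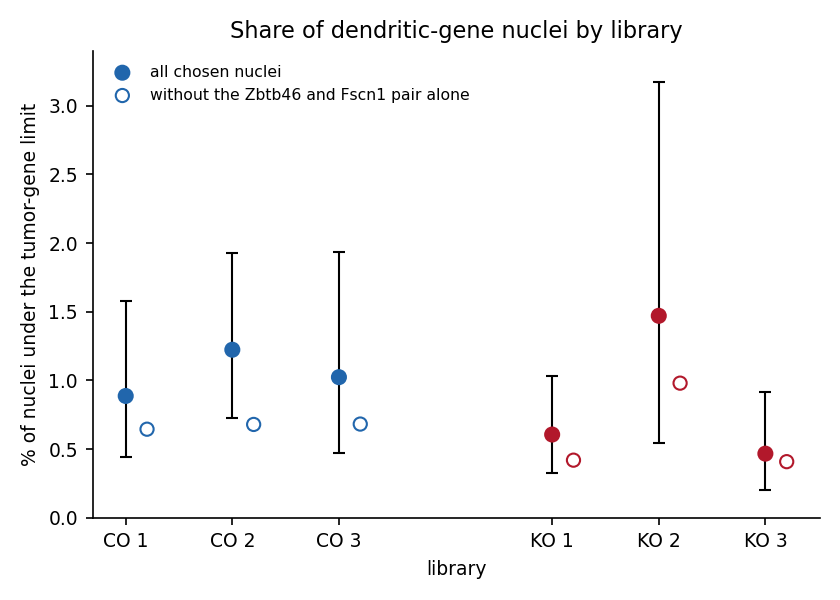
Selected nuclei as a percent of nuclei under the tumor-gene limit in each library, with exact 95% binomial intervals on the filled points. Open points leave out the Zbtb46/Fscn1 nuclei. KO 2, at 1.47%, has the widest interval, and the CO and KO libraries overlap.

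Of nuclei with counts on exactly 1 side, the Ccr7/Fscn1 side took 70%, 87.5% and 80% in CO 1, CO 2 and CO 3 and 55.6%, 100% and 100% in KO 1, KO 2 and KO 3. The KO values spanned those of CO. The difference was 6.02 percentage points (79.2% ± 8.78 against 85.2% ± 25.7, SD, n = 3 each, exact permutation p = 0.8), and it turned to -1.39 when either KO 2 or KO 3 was left out. Without the Zbtb46/Fscn1 nuclei, which are 21 of the 39 counted, it was 12.6 (60.7% against 73.3%, exact permutation p = 0.8, n = 3 each), with KO 1 at 20%. With Ccr7 or Ccl22 in place of Ccr7 or Fscn1 it was 26.8 (34.3% against 61.1%, exact permutation p = 0.4, n = 3 each). No Xcr1/Clec9a-side nucleus was found in KO 2 or KO 3, among 3 and 6 nuclei with counts on exactly 1 side, which is too few to show a lower share.

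In the members' genes, edgeR called 0 of 723 between libraries labelled KO and CO (0%), 5 had an unadjusted p under 0.05, and DESeq2 also called 0, with 26 of 12136 under 0.05 unadjusted. The smallest edgeR adjusted p was 0.992. Spread between libraries was wide, with a biological coefficient of variation of 57.7%, so changes of ordinary size were not detectable with 6 to 18 nuclei per library. Genes of the rule, such as Zbtb46, were not left out of this fit, and their values describe the choice. Flt3, a gene of the rule, had 11, 16 and 25 counts in CO members and 14, 3 and 7 in KO members. Wdfy4, Traf1 and H2-Ab1 gave no call, at log2 fold changes of -0.48, -0.14 and 0.61. By list, the median was -0.36 over 5 mature genes, -0.59 over 7 MHC class I genes and -0.14 over 5 NF-kB genes, beside -0.05 over all 723.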

How the data were processed

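The authors deposited UMI counts per gene and nucleus barcode for 6 libraries (3 CO, 3 KO), made with droplet-based 3′ chemistry, Cell Ranger and build GRCm38. The labels' processing notes name Cell Ranger 3.0.2 and Seurat 5.2.1, the file headers Cell Ranger 3.1.0. The methods describe SoupX, which corrects for free RNA, but the deposited counts are whole numbers. Extra washes were given to some samples, and which ones is not stated. The chi-square per degree of freedom between libraries of a group was 8.60 to 195, so none was a copy of another. Of all kept barcodes, 48 occurred in more than 1 library.

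Nuclei were chosen by the rule in the report, and the members and the 23 gene lists were chosen with earlier results of these data known. Levels are UMIs per 10000 in pooled nuclei. Counts summed per library were tested in edgeR 4.0.16 (R 4.3.3; quasi-likelihood, TMM, filterByExpr, Benjamini-Hochberg adjustment, absolute log2 fold change of at least 0.58 and adjusted p of at most 0.05), with 16 rule genes left out of the macrophage comparison. Shares were tested by exact permutation. The scripts were tested on simulated data. Genes named by rank were the 10 largest and 10 smallest log2 fold changes among called genes moving the same way in every library, and list genes were named when called or abundant. Sides were not fitted, since only 2 libraries had 3 nuclei on each. Alternatives were DESeq2 1.42.0, other size factors, no count filter, left-out libraries, a stricter reading, stricter quality limits, thinning to 1000 UMIs, other macrophages and removal of Scrublet doublets (scanpy 1.11.5, at 0.8% per 1000 barcodes, 521 nuclei). The listed genes Cxx1b and Ccl19 were not used here. Promoters came from RefSeq (GRCm38.p6) and gene positions from GENCODE vM21.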

Additional observations from a re-analysis of the deposited data

How the results depend on the processing

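Between 6 and 18 nuclei per library limit every comparison of the groups. The side share turned to -1.39 percentage points without KO 2 and without KO 3, and ranged from -1.39 to 20.8 over left-out libraries. Genes called against macrophages (993) ranged from 610, without CO 2, to 1055 over left-out libraries, fell to 284 (24 higher) in the stricter reading with 14 nuclei, to 473 of 2170 tested with macrophages chosen by Adgre1 and without the excluded genes, and to 417 without the Zbtb46/Fscn1 nuclei. Each of these used fewer nuclei or libraries, and the cause beyond that was not tested. With other size factors (RLE) 41.2% of calls were higher and with DESeq2 47.9%, beside 35.2%. Igf2bp2 turned to -0.24 in the stricter reading. Over the genes named by rank, 238 values under alternatives kept direction and call and 7 lost the call, 4 of them in the stricter reading (Agmo, Msra, Tnfsf13b and Lilra5) and 3 without the Zbtb46/Fscn1 nuclei. Alternatives in which a gene was not tested are left out of these counts. Without the Zbtb46/Fscn1 nuclei Chst11, Cbfa2t3, Osmr, Spaca6, Agmo, Tnfsf13b and Lilra5 had no value. Of the higher genes only Igf2bp2, Zfp366 and Cytip had a value in the stricter reading. KO against CO gave 0 calls in every alternative run. The share difference stayed negative in all of its alternatives. The side share could not be had in the stricter reading or after thinning, and fits between sides were not run.

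Replicate numbers were shared between the groups, and whether they pair the samples could not be decided. Deviations of same-numbered members correlated at 0.303, -0.175 and 0.346, and those of all kept nuclei at 0.471, -0.260 and 0.391. Differently numbered libraries ran from -0.486 to 0.473 and from -0.525 to 0.324. The main comparisons of the groups were unpaired. With a replicate block KO against CO gave 0 calls, the exact sign-flip p was 0.5 for the share and 0.75 for the side share (3 pairs cannot go below 0.25), and without the library block the macrophage comparison gave 1067 calls.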

Other observations

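Some genes outside the fixed lists were high in the 44 nuclei without the Zbtb46/Fscn1 pair alone. Dpp4, the peptidase CD26, had 36 counts in 16 of the 44, 3.89 per 10000 against 0.192 in macrophages, on both sides (11 counts in 6 nuclei of the Xcr1/Clec9a side and 13 in 4 of the Ccr7/Fscn1 side). Tmem131l had 77 counts in 27 nuclei and Tbc1d8 85 in 26, above macrophages in 6 and 5 of 6 libraries. Syn3, a gene of the synapsin family, had 46 counts in 9 nuclei, all on the Ccr7/Fscn1 side, at 8.85 per 10000 against 0.0494 in macrophages and 0.0397 in tumor nuclei. Tmem150c, a mature-list gene, had 17 counts in 9 nuclei there. The immediate-early genes Jun and Egr1 had 219 and 128 counts in 13 and 8 nuclei, of which 100 and 47 lay in a single nucleus. These genes were picked after their values were seen, so no test is given.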
